A study of Mus musculus with 3 samples.

Results

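The 41 genes described here mark endothelial cells, the cells that line blood and lymph vessels. They were given as a list of gene names, and were found on the array by the name or accession that the scanner files give each probe. All 41 were present, through 68 probes, among 27677 gene names on the design. They span receptors for vascular growth factors, junction and surface proteins, transcription factors, adhesion and clotting proteins, regulators of vascular tone, Notch and angiopoietin signalling, and markers of lymphatic and liver sinusoidal endothelium.

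The series compared tumours of AID Tg mice, which carry activation-induced cytidine deaminase (AID) as a transgene, on 2-colour Agilent mouse arrays. There were 3 tissue pairs with 1 array each: liver cancer and stomach (gastric) cancer, each beside nontumor tissue of the same AID Tg mouse, and lung cancer of an AID Tg mouse, set against the normal lung of a Wt (wild-type) animal, so the lung pair differs in genotype as well as in tumour. The transgene's promoter and the ages of the mice were not stated in the labels. Scanner values were analysed for liver and stomach; for lung, the values come from the spots that the authors' deposited table lists.

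Which dye carried the tumour is unsettled. The sample labels assign Cy3 to tumour RNA and Cy5 to the comparison tissue, but the deposited gene table puts Cy5-bright spots under its tumour-up headings. Ratios below are on the scale log2(Cy5/Cy3), where a positive value is Cy5-high and a negative one Cy3-high. By the table's headings, Cy3-high means lower in the tumour; by the dye labels it means higher there, and every sign turns. With 1 array per pair, no dye swap and no replicate, no test between tissues was possible and precision is limited by how few arrays there are. Errors are the standard deviation (SD) between probes of a gene or, for 1 probe, the error that the scanner program attached to the ratio, converted to log2; both cover measurement only, and the lung table gives no error.

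Endothelial cells build and regulate vessels. Vascular endothelial growth factor (VEGF) acts on the receptor kinases Kdr and Flt1 in blood vessels and Flt4 in lymph vessels, and the angiopoietins Angpt1 and Angpt2 act on Tek, with Tie1 as a partner receptor. Cdh5, Cldn5, Esam and Pecam1 hold neighbouring cells together; Erg and Fli1, of the ETS family, and Sox7, Sox17 and Sox18 are transcription factors of the endothelial programme; Calcrl forms the adrenomedullin receptor with Ramp2. In liver, the sinusoids are lined by a specialised endothelium that takes up waste through the scavenger receptors Stab1 and Stab2, and in lung a dense capillary bed surrounds the air spaces.

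In the RefSeq-derived promoter table (build GRCm38.p6, windows of 300 bases around the gene start), 22 of the 41 genes had an entry, of which 16 were listed for lung. The sequences of the 5 among these 16 with the largest lung ratios follow in order of that ratio. Each is on the gene's strand from 5′ to 3′. They show the promoter-side sequence of the members with an entry that differed most. Ramp2 (-3.95) and Icam2 (-3.42), also among the largest lung ratios, had no entry. Capitals mark AGGAAG and CGGAAG, or their reverse complements, which are forms of the ETS core.

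Calcrl, chr2:84425217-84425516, minus strand: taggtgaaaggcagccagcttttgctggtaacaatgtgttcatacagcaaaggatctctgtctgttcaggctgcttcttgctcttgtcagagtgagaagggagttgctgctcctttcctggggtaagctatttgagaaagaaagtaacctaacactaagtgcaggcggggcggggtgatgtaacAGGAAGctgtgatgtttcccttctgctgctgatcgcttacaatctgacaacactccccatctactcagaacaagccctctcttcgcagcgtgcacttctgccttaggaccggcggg
Cldn5, chr16:18776597-18776896, plus strand: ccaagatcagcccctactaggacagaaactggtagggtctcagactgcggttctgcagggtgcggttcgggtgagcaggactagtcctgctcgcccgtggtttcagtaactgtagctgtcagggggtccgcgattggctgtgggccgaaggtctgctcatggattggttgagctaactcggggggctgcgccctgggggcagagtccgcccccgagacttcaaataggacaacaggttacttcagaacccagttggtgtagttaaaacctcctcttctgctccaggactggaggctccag
Kdr, chr5:75978406-75978705, minus strand: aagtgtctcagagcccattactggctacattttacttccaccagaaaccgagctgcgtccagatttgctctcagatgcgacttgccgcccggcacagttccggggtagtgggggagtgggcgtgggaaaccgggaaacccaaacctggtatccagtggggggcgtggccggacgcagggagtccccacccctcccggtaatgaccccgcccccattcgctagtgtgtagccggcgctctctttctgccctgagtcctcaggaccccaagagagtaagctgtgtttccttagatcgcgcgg
Egfl7, chr2:26580833-26581132, plus strand: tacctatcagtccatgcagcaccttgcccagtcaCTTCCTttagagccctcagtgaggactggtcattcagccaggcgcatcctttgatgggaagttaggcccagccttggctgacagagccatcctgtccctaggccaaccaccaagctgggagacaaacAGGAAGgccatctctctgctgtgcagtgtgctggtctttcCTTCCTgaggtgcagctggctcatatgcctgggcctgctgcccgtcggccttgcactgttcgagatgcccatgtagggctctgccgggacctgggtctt
Tek, chr4:94739039-94739338, plus strand: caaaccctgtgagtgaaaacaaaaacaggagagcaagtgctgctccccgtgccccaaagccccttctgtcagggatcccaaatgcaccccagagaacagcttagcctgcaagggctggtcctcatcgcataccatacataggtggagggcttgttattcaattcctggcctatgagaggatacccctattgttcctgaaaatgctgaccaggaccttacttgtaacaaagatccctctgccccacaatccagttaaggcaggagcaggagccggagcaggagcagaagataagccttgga

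The Cldn5, Kdr and Tek windows held neither form, the Calcrl window 1 match and the Egfl7 window 3. AGGAAG, searched on both strands, occurred in 13 of the 22 member windows (59.1%) and in 35.1% of all 27025 windows in the table. CGGAAG occurred in 2 of the 22 and in 17.2% of all windows. Both of these windows, those of Tie1 and Stab1, also held AGGAAG, so either form was present in 13 member windows and in 46.4% of all windows; among the 16 lung-listed genes the number was 10. The SOX cores ACAAAG and ACAATG were present in 2 member windows each, against 18.7% and 12.8% of all windows. The ETS forms share the letters GGAAG, and a match describes letters, not binding.

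The lung comparison set a tumour of an AID Tg mouse against normal lung of a Wt mouse. Most endothelial genes stood on the Cy3 side. In the authors' deposited table, 31 of the 41 genes (75.6%) had at least 1 spot in the Cy3-high list and 0 had a spot in the Cy5-high list. Over all gene names of the design, 12.4% had a spot in the Cy3-high list and 6.84% in the Cy5-high list of the authors' deposited table. Genes with several probes have more chances to be listed, so single-probe genes were counted apart: 15 of 22 members with 1 probe (68.2%) were in the Cy3-high list of the authors' deposited table, against 8.90% of 18747 such genes on the design. Counted by spot, 39 of 68 (57.4%) were listed there, against 9.78% of all gene spots; 0 were in the Cy5-high list, against 5.51%. At 3-fold or more, 25 members remained in the authors' deposited table, against 7.07% of all genes. The lung lists of the authors' deposited table start at 2-fold, so a gene missing from them has no value here and may lie anywhere below that size or have failed another criterion.

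Among the genes listed, the ratios of the endothelial members were large. By the authors' deposited table the 31 members had a median mean ratio of -2.21, against -1.66 for all 3420 genes with a Cy3-high spot. A mean ratio of 4-fold or more was reached in the authors' deposited table by 18 of the 31 (58.1%), against 33.0% of those 3420 genes. In bulk tissue, a different number of cells of a type and a different amount of RNA per cell cannot be told apart. In the lung pair, tumour and genotype cannot be told apart either.

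**Figure D1:**
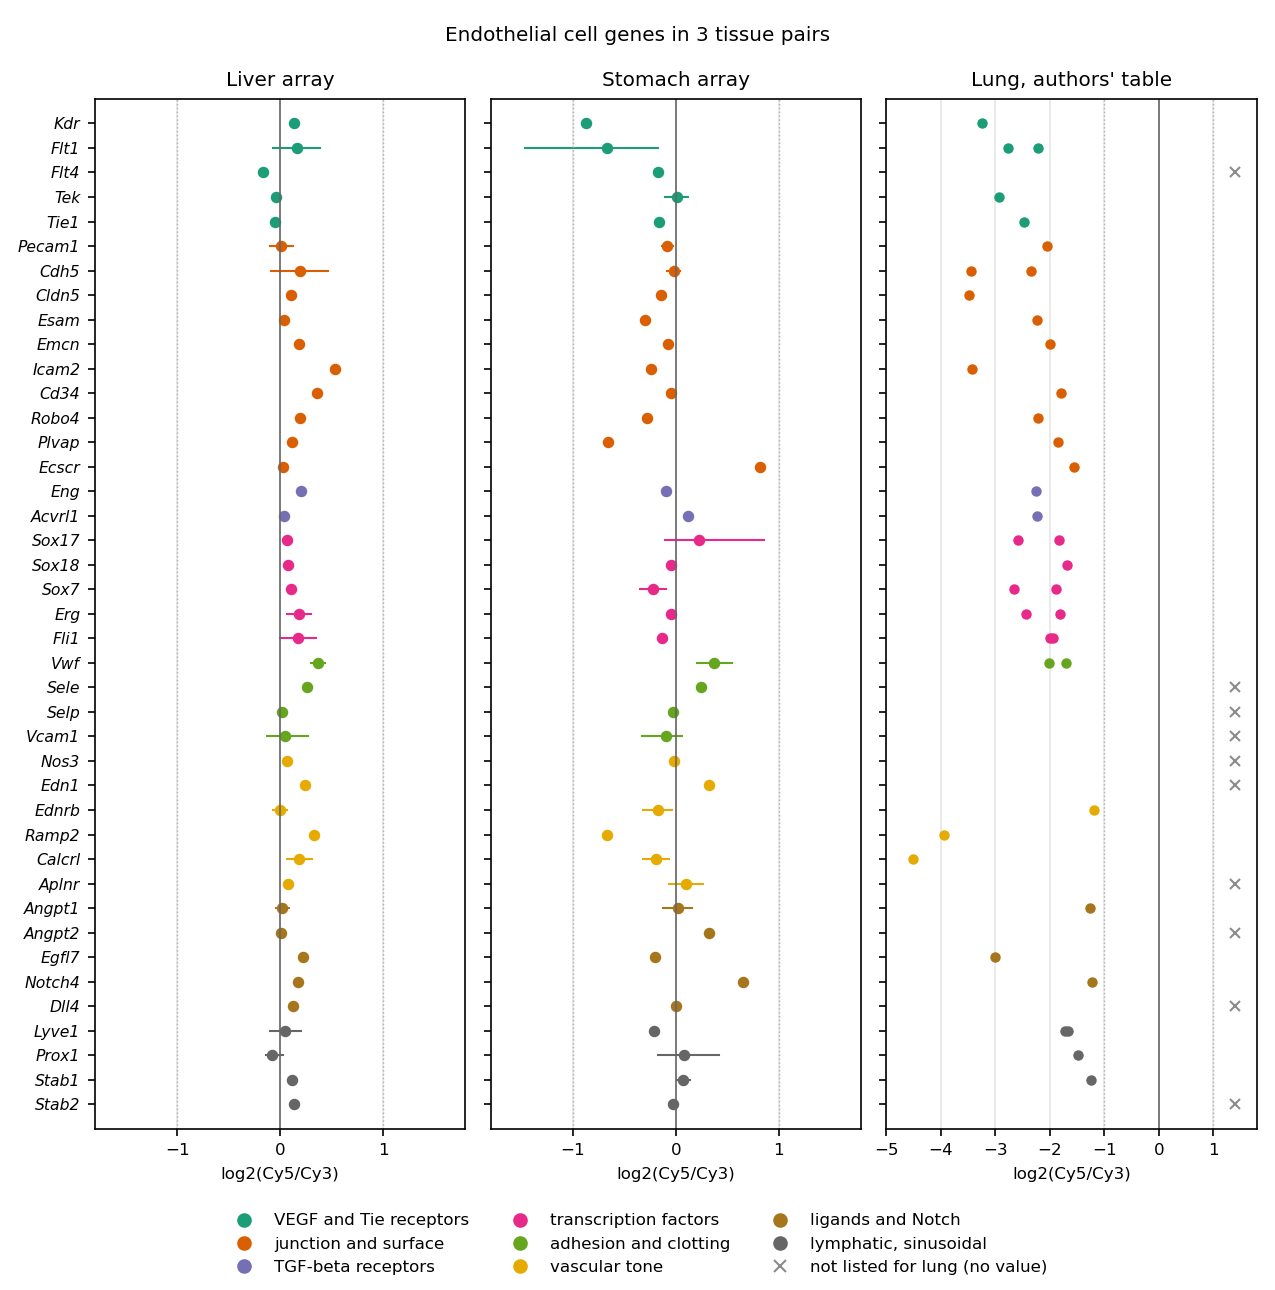
Ratios of the 41 endothelial genes as log2(Cy5/Cy3) on the horizontal axes, 1 row per gene, coloured by role. On the liver and stomach arrays a point is the mean over a gene's probes and a line spans its probes; for lung each point is a spot of the authors' deposited table and a cross at the right marks the 10 genes not listed, which have no value. Dotted lines mark 2-fold. All 39 lung spots lie to the left of -1, while the liver and stomach points stay within 2-fold.

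The adrenomedullin receptor gave the largest lung ratios of the members. Calcrl, which forms this receptor with Ramp2, had signals of 79700 in Cy3 and 3460 in Cy5 in the authors' deposited table. It was 22.9-fold brighter in Cy3 (log2 ratio -4.52). That value comes from 1 of 2 Calcrl probes; the other was not listed. Ramp2, the accessory protein that gives the receptor its adrenomedullin preference, had 107000 in Cy3 and 6920 in Cy5 in the authors' deposited table, or 15.5-fold (-3.95). Both subunits of the receptor lay on the same side. Adm, the ligand, stood opposite, at 6.85-fold brighter in Cy5 (2.78) in the authors' deposited table.

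Other regulators of vascular tone were less uniform. Ednrb, an endothelin receptor, was among the weakest of the listed members, at -1.19 from 1 of 2 probes in the authors' deposited table (716 in Cy3, 314 in Cy5), just inside the 2-fold limit. Nos3, which makes nitric oxide, Edn1, the endothelin peptide, and Aplnr, the apelin receptor, were not listed. Of the 6 genes of this group, 3 were listed.

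Receptors for vessel growth factors followed. Kdr, the main VEGF receptor of blood vessels, had 23200 in Cy3 and 2430 in Cy5 in the authors' deposited table, 9.55-fold brighter in Cy3 (-3.26). Tek, the angiopoietin receptor, had 3500 and 459 there, or 7.62-fold (-2.93, from 1 of 2 probes), and Tie1 had 3020 and 544, or 5.55-fold (-2.47), in the authors' deposited table. Flt1 was listed through 2 of its 5 probes, with 47400 against 6920 and 17600 against 3800 in the authors' deposited table (-2.78 and -2.22). Flt4, the receptor of lymph vessels, was the only 1 of these 5 receptors not listed.

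All 10 junction and surface genes were in the Cy3-high list. Cldn5, a tight junction protein of endothelium, had 56100 in Cy3 and 5050 in Cy5 in the authors' deposited table, 11.2-fold (-3.49). Icam2, an adhesion molecule present on resting endothelium, had 31000 and 2900 in the authors' deposited table, 10.7-fold (-3.42). For Cdh5, the endothelial cadherin, both probes were listed in the authors' deposited table, at -3.45 (31900 against 2900) and -2.35 (2550 against 500).

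The remaining surface genes spread over a narrower range. In the authors' deposited table Esam, a junction adhesion molecule, stood at -2.24, Robo4, a guidance receptor that steadies vessels, at -2.23, Pecam1, the platelet endothelial adhesion molecule CD31, at -2.06 from 1 of 2 probes, and Emcn, a sialomucin of capillaries and veins, at -1.99. Plvap, which forms the diaphragms of fenestrated endothelium, had -1.84, Cd34, a sialomucin also found on blood stem cells, -1.79, and Ecscr, a regulator of endothelial movement, -1.56 in the authors' deposited table. The unlisted Pecam1 probe is one whose description names another product, although the scanner files call it Pecam1.

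Transcription factors were all listed. Sox7 (-2.65 and -1.90), Sox17 (-2.58 and -1.83 for 2 of 4 probes), Erg (-2.44 and -1.81) and Fli1 (-1.99 and -1.95) each had 2 spots in the Cy3-high list of the authors' deposited table, and Sox18 had 1 (-1.68). The brightest of these was the Erg spot with 9660 in Cy3 against 1780 in Cy5 in the authors' deposited table, and the dimmest the other Erg spot, with 273 against 78.0. The Erg probes differ in brightness by far more than in ratio. Fli1 is also expressed in blood cells.

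The TGF-beta family receptors Eng and Acvrl1, which are mutated in hereditary haemorrhagic telangiectasia, had almost equal ratios. Eng had 7880 in Cy3 and 1650 in Cy5 (-2.25) and Acvrl1 1930 and 411 (-2.23) in the authors' deposited table. Of 15 further genes of the BMP and TGF-beta pathway, 4 were in the Cy3-high list of the authors' deposited table: Bmpr2 (-2.08), the receptor that pairs with Acvrl1, Smad6 (-2.03), an inhibitory mediator, and Id3 (-1.30) and Bmp6 (-1.30). Id1, a target of this pathway, was the 1 gene of the list past 2-fold on an array, at -1.12 in liver (SD 0.01 between 2 probes).

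Of the adhesion and clotting genes, 1 of 4 was listed. Vwf, the clotting protein stored in endothelium and platelets, was listed through 2 of 3 probes, at -2.02 (63100 against 15600) and -1.71 (16600 against 5060), in the authors' deposited table. Sele, Selp and Vcam1, which capture leukocytes on activated endothelium, were not listed.

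Among the ligands and Notch genes, Egfl7, a factor secreted by endothelium, had 55900 in Cy3 and 6950 in Cy5 in the authors' deposited table, 8.05-fold (-3.01). Angpt1, the activating ligand of Tek, made mostly by perivascular cells, was at -1.26 from 1 of 2 probes (494 against 207), and Notch4, a Notch receptor of endothelium, at -1.23 (7440 against 3180), in the authors' deposited table. Angpt2, which opposes Angpt1 and marks vessels being remodelled, and Dll4, the Notch ligand of tip cells, were not listed.

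Lymphatic and sinusoidal genes had small lung ratios, with a median of -1.48 over the 3 listed of 4; the 3 listed ligand and Notch genes had a median of -1.26. Lyve1, a hyaluronan receptor of lymphatic endothelium that lung capillaries and macrophages also express, was listed by both probes in the authors' deposited table, at -1.72 and -1.67 (1040 against 315 and 16000 against 5050). Prox1, the master regulator of lymphatic fate, had -1.48 from 1 dim spot among 3 probes (325 against 116), and Stab1 -1.25 from 1 of 2 probes, in the authors' deposited table. Stab2 was not listed.

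**Figure D2:**
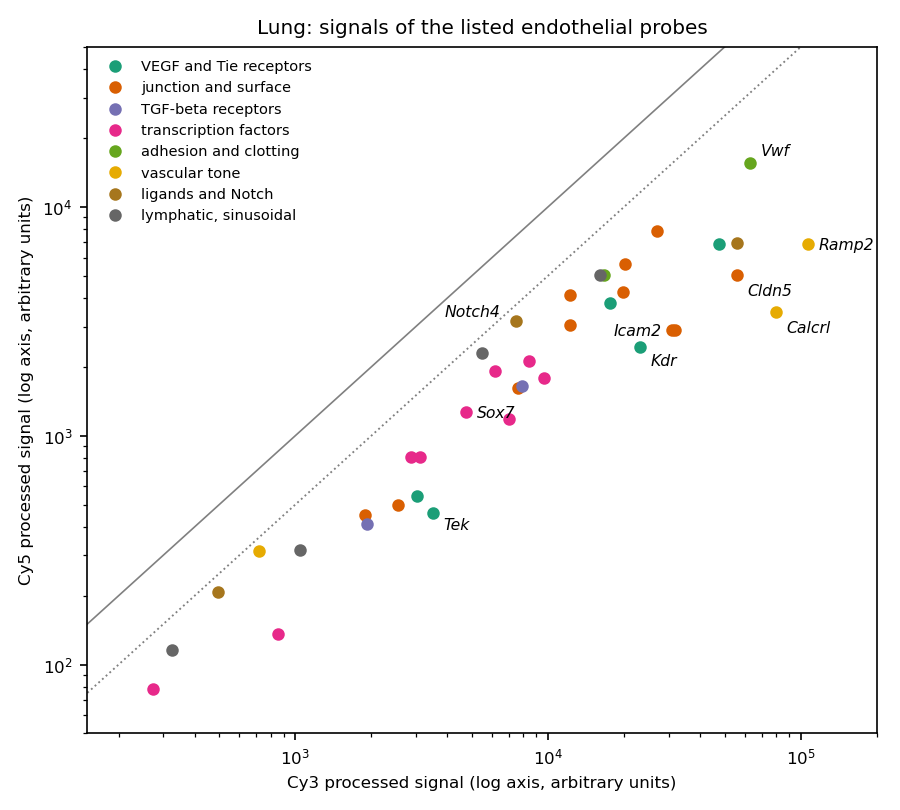
Cy3 signal against Cy5 signal of the 39 lung spots of the endothelial genes in the authors' deposited table, both in arbitrary units on log axes, coloured by role. The solid line marks equal signals and the dotted line 2-fold. All spots lie below the dotted line because the lung lists start at 2-fold. Calcrl lies farthest from it, at 79700 in Cy3 and 3460 in Cy5.

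The stomach comparison asked how tumour and nontumour stomach of 1 mouse differ. Endothelial genes were near balance there. Kdr, Flt1, Plvap and Ramp2 lay at -0.87 to -0.66, whereas Ecscr and Notch4 lay at 0.82 and 0.65. The median of the 41 was -0.05, against 0.001 over all 25322 genes measured, 27 were below 0 and 14 above, against 50.2% of all genes above 0. Centred on the array median without loess, the members' median was 0.064, against 0.060 over all genes. By that setting 22 members were above 0, beside 14181 of all 25322 genes, so the side of the median is not settled. No member reached 2-fold on the mean over its probes, against 0.873% of all genes Cy5-high and 1.41% Cy3-high. At 0.5 or more on the log2 scale, 4 members were Cy3-high (background 4.04%) and 2 Cy5-high (4.39%), and 35 lay between.

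Kdr had processed signals of 4900 in Cy3 and 2430 in Cy5 in stomach, and a ratio of -0.87 (scanner error 0.21, 1 probe measured, chromosome 5 at 75351537 to 75351596 in the scanner files, with the build not stated). Its second probe was not well above background in either channel. Plvap had 8250 and 4920 (-0.66, error 0.18), and Ramp2 had 4230 and 2460 (-0.67, error 0.21). These 3 were dimmer in Cy5 by more than their scanner error. With the array centred on its median and no loess curve, the ratios shrank to -0.40 for Kdr, -0.06 for Plvap and -0.21 for Ramp2, and the Notch4 ratio given next grew to 0.998. With no filter on background, which lets in its dim second probe, Kdr was -0.47.

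Ecscr stood opposite the other surface genes in stomach, with 899 in Cy3 and 1930 in Cy5 (0.82, error 0.34). It was the 1 junction and surface gene above 0, the other 9 lying below. Of those 9, Cdh5, Cd34, Emcn, Cldn5, Icam2 and Esam did not differ from 0 beyond their errors. Pecam1 (-0.08) lay within the mean scanner error of 2.19 of its probes. Notch4 had 1390 and 2480 (0.65, error 0.27). Vwf had 3080 against 4530 on its brightest probe, and its 3 probes averaged 0.37 (SD 0.17). Angpt2 (0.32, error 0.37) and Edn1 (0.32, error 0.83) did not differ from 0 beyond their errors, nor did Dll4 (0.00, error 0.61) or Aplnr (0.10, SD 0.23 between 2 probes).

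The authors' own selection for stomach held 8 of the 41 genes, 4 in each direction. Kdr, Flt1, Plvap and Ramp2 were Cy3-high, and Ecscr, Notch4, Sox17 and Vwf were Cy5-high, in the authors' deposited table. Of all gene names, 4.32% were in its Cy3-high and 5.17% in its Cy5-high list. The smooth muscle markers, vascular and visceral in 1 list and so not particular to vessel walls, lay far to the Cy3 side of the stomach array. Of these, 9 of 10 were below 0 and 5 at least 2-fold, with a median of -1.26. Their summed processed signal was 313112 in Cy3 and 104323 in Cy5. Pericyte genes had a median of -0.21 (3 of 11 above 0; summed signal 62735 and 24827), with Anpep (-2.38) and Des (-1.99) lowest; Des is also in the smooth muscle list, and both genes are also expressed outside pericytes. All genes of both lists were measured, and their part in the stomach ratios of the endothelial genes was not tested.

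Single probes of Flt1 disagreed in stomach. The 2 probes near the 3′ end of the transcript, chromosome 5 at 146456619 to 146456678 and 146456692 to 146456751, had 13300 in Cy3 against 4440 in Cy5 and 4560 against 1980, with ratios of -1.47 and -1.03. The probe 75990 bases away had -0.48, and those 83341 and 92185 bases away had -0.18 and -0.21 (scanner errors 1.52 and 0.24). The mean of the 5 was -0.67 with an SD of 0.56, and both probes at the 3′ end were past 2-fold. In the authors' deposited table for lung the 2 probes at the 3′ end were listed and the other 3 were not. Flt1 makes a membrane receptor and shorter soluble forms that lack the 3′ part, but which transcripts each probe detects was not tested.

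Sox17 probes also disagreed in stomach, with the other sign. The probe closest to the 3′ end, chromosome 1 at 4487014 to 4487073, had 1200 in Cy3 and 2790 in Cy5 (0.85). The probe 387 bases away had 0.20, and the remaining 2, 3728 and 7249 bases away, had -0.11 and -0.05 (scanner errors 0.98 and 1.16). The last of these is placed on the opposite strand by the scanner files. The gene mean of 0.22 had an SD of 0.44 between probes. Both 3′ probes were Cy3-high for lung in the authors' deposited table.

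**Figure D3:**
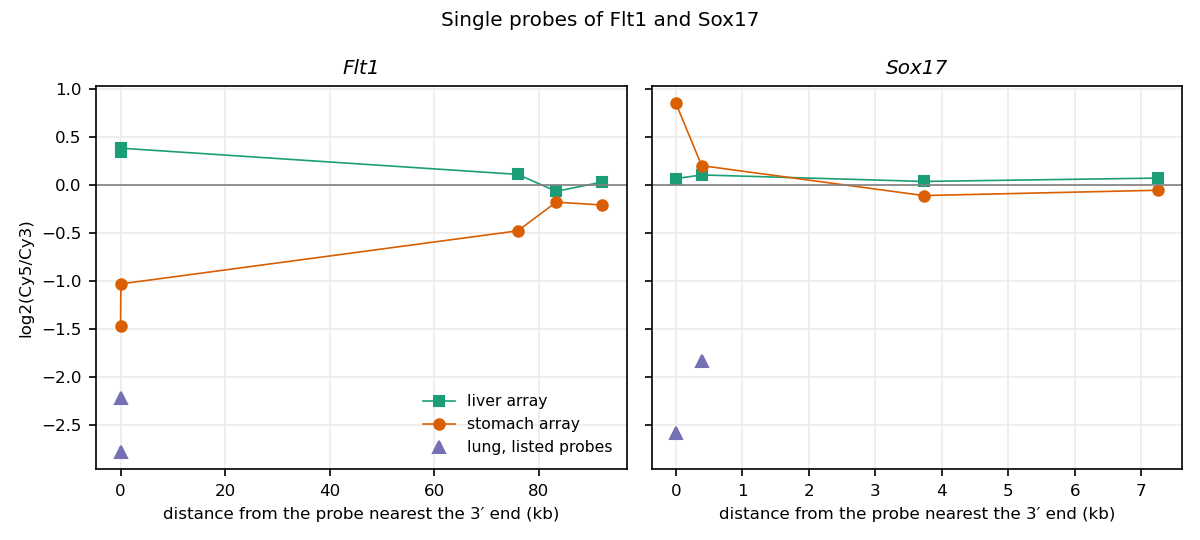
Ratio of each Flt1 probe and each Sox17 probe as log2(Cy5/Cy3) against its distance in kilobases from the probe nearest the 3′ end, for the liver array (squares), the stomach array (circles) and the probes listed for lung in the authors' deposited table (triangles). The stomach ratios are farthest from 0 at the 3′ end, -1.47 for Flt1 and 0.85 for Sox17, and lie between -0.48 and 0.20 elsewhere, apart from the second 3′ probe of Flt1 at -1.03.

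In liver, the comparison of tumour with nontumour tissue of 1 mouse, endothelial genes lay slightly to the Cy5 side. Of the 41 genes, 37 were above 0, against 52.9% of all 25606 genes measured, and the median was 0.12 against 0.01. The range ran from -0.16 (Flt4) to 0.53 (Icam2). None reached 2-fold, as did 0.152% of all genes in the Cy5-high and 0.0703% in the Cy3-high direction, and 0 of the 41 were in the authors' deposited table for liver, which held 1.75% of all gene names as Cy5-high and 1.36% as Cy3-high.

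Icam2 had 518 in Cy3 and 950 in Cy5 in liver (0.53, scanner error 0.53). It was the 1 member at 0.5 or more, against 1.32% of all genes in that direction; none was at -0.5 or less, against 0.965% of all genes. The next were Vwf (0.37, SD 0.10 between 2 probes), Cd34 (0.36, error 0.56), which had 497 and 863, and Ramp2 (0.33, error 0.42), which had 805 and 1070. Of these, Vwf exceeded the SD between its probes, though not the mean scanner error of 0.51 of those probes. Kdr (2330 and 2550; 0.14, error 0.22) and Plvap (2990 and 3210; 0.12, error 0.20), both low in Cy5 in stomach, lay within their errors; centred on the median without loess they were 0.38 and 0.39.

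The scavenger receptors of liver sinusoids were nearly level between the tissues. Stab2 had 1570 in Cy3 and 1680 in Cy5 (0.13, error 0.27), Stab1 a ratio of 0.12 (SD 0.01 between 2 probes), and Lyve1 0.05 (SD 0.21), with 3140 and 3680 on its brighter probe. On the stomach array, normalized separately, the same probes read 909 and 837 for Stab2 and 1570 and 1280 for Lyve1. Vcam1 had 5570 and 6890 on its brightest liver probe and 1070 and 1250 on the stomach array. Of 14 further liver sinusoidal genes, such as Clec4g and Oit3, 11 were above 0 on the liver array, with a median of 0.06, and none was 2-fold. Prox1, also a hepatocyte regulator, had 3250 and 2940 on 1 of its 3 probes, which read 187 and 503 in stomach. The other Prox1 probes were not brighter in liver. They read 588 and 535 in liver against 618 and 658 in stomach, and 1040 and 1070 against 1480 and 1300.

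Markers of other cell types stood as follows in liver. All 10 fibroblast genes were above 0 (median 0.28; summed processed signal 31124 in Cy3 and 46729 in Cy5), as were 10 of 11 pericyte genes (median 0.14; 19024 and 20568) and 9 of 12 leukocyte genes (median 0.08; 36907 and 37764). Hepatocyte genes had a median of -0.13, with 2 of 7 measured above 0. The part of these in the endothelial shift was not tested.

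The 3 organs could not be compared by a test. Their lists also differ in criterion, so counts of listed genes are not on 1 scale. The lung lists start at 2-fold, whereas the stomach list held Vwf at 1.47-fold. The largest p-value of the scanner program among listed spots was 0.00991 in liver and 0.01 in stomach. Kdr, Flt1, Plvap and Ramp2 were Cy3-high in both the stomach and the lung rows of the authors' deposited table, at -1.01, -1.58 to -1.20, -0.75 and -0.78 in stomach. Ecscr, Notch4, Sox17 and Vwf were Cy5-high in stomach in the authors' deposited table, at 2.15-fold, 1.78-fold, 2.34-fold and 1.47-fold. Sox17 was so listed by 1 of 4 probes and Vwf by 1 of 3. Over all their measured probes the stomach means were 0.22 (SD 0.44) and 0.37 (SD 0.17). The same genes were Cy3-high in lung in the authors' deposited table (-1.56, -1.23, -2.58 to -1.83 and -2.02 to -1.71). Of the 31 members listed for lung, 22 lay below 0 on the stomach array, against 60.6% of the 3340 lung Cy3-high genes measured there, and 28 lay above 0 on the liver array, against 66.5% of the 3362 such genes measured there.

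Genes of the same biology outside the 41 were counted from lists of their own, with the 41 left out; some genes, such as Ptprb and Apln, stand in more than 1 list. These lists, like the members, were chosen with earlier results of these data known, so their counts are not independent support. Of 26 other pan-endothelial genes, 24 were in the Cy3-high lung list of the authors' deposited table and 0 in the Cy5-high list. Over all gene names the shares were 12.4% and 6.84%, which is also the scale for the list counts that follow. The largest ratios in the authors' deposited table were those of Klf2, a transcription factor induced by blood flow (-4.42), the adhesion receptor Adgrf5 (-4.05), Clec14a (-3.92), Ushbp1 (-3.45), Tspan7 (-3.32) and Clec1a (-3.25). On the stomach array this list had a median of -0.04, with 1 gene past 2-fold, Rasgrp3 (-1.97, singled out after its value was seen), and on the liver array 0.06, with none. Klf2 was also low in Cy5 in stomach (-0.90, SD 0.16 between 2 probes).

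Genes typical of lung capillaries were Cy3-high for lung in 11 of 13 cases, against 12.4% of all gene names. Thbd, the thrombin receptor thrombomodulin, had the largest ratio in the authors' deposited table, 38.0-fold (-5.25), followed by Tmem100 (-3.20), Tbx3 (-3.20), Car4 (-3.10), Kit (-2.70) and Fibin (-2.49). Arterial and Notch genes were listed in 5 of 13 cases, Sema3g (-3.39), Hey1 (-2.33), Gja4 (-1.59), Notch1 (-1.54) and Gja5 (-1.02), all Cy3-high in the authors' deposited table.

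Partners of the VEGF and angiopoietin pathway went both ways in lung. Of 15, 8 were in the Cy3-high and 2 in the Cy5-high list of the authors' deposited table. The largest on the Cy3 side of the authors' deposited table were Epas1, a hypoxia-inducible transcription factor (7.98-fold), Ptprb, a phosphatase of Tek (-2.87), the lymphatic growth factor Vegfd (-2.85) and the VEGF coreceptor Nrp2 (-1.72). Hif1a (2.61) and Tnfrsf12a (3.22) were Cy5-high in the authors' deposited table. Of 13 genes linked to tip cells and sprouting, 5 were Cy3-high and 3 Cy5-high in the authors' deposited table, the latter being Kcne3 (4.70), Adm (2.78) and Unc5b (2.73); Kcne3 is also an epithelial channel subunit and had 2.72 on the stomach array (SD 0.23 between 2 probes). Of 4 venous genes, 2 were Cy3-high in the authors' deposited table, Il6st (-2.33) and Nr2f2 (-1.21), and 1 was Cy5-high. The Cy5-high gene was Ackr1, the chemokine receptor of venules, at 9.51-fold (3.25) in the authors' deposited table, opposite the endothelial members.

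Many markers of other lung cells stood on the same side as the endothelial genes. In the Cy3-high list of the authors' deposited table were 9 of 12 alveolar and airway epithelial genes, among them Sftpa1 (-4.29), Napsa (-3.99) and Ager (-3.95), 7 of 12 leukocyte genes, 6 of 11 pericyte genes, 6 of 10 smooth muscle genes, 5 of 10 platelet genes and 5 of 10 fibroblast genes; the 1 Cy5-high gene of these lists was the fibroblast gene Col1a1 (1.49). The alveolar and airway genes Sftpc, Scgb1a1 and Scgb3a2 were not listed. Epcam, an epithelial gene counted in the gastric list, was Cy5-high for lung at 2.86 in the authors' deposited table. Of the defining platelet genes, which bear on Vwf, Ppbp was listed there (-2.67) and Pf4 was not. Summed levels of these lists were not computed for lung, since unlisted spots have no value here, and the part of these cells in the endothelial counts was not tested.

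**Figure D4:**
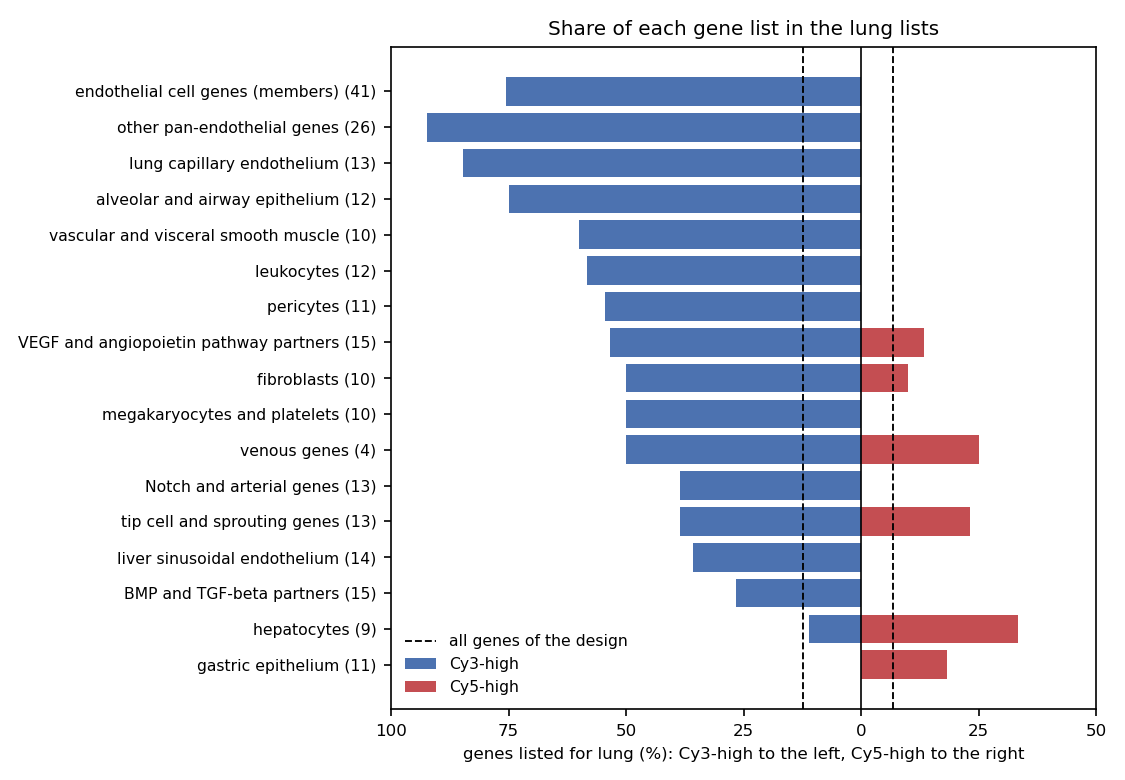
Share of each gene list, in percent of its genes on the design (number in parentheses), with a spot in the Cy3-high (left) or Cy5-high (right) lung list of the authors' deposited table. Dashed lines mark the shares over all gene names, 12.4% and 6.84%; the endothelial members reach 75.6% on the left and have none on the right, and most of the other lists also have none on the right.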

How the data were processed

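Total RNA (500 ng a sample) was linearly amplified into Cy3 or Cy5 targets, per the labels' protocols, and Agilent Feature Extraction 8.5.1.1 is named in the submitters' processing notes. The deposited scanner intensity columns give mean spot signals, local backgrounds and processed signals, per the file headers. The deposited log10 ratio is processed red over green, and the p-value beside it in the deposited files is the one the scanner program computed. The authors' deposited table stacks Cy5-high and Cy3-high lists of 3 organs; its liver and stomach ratios equal those of the scanner files. Its signal columns change order within the lung Cy3-high list: for 1776 of its spots the red signal sits 1 column earlier, the order that gives the listed ratio within 0.01 (log10). Lung spots were named through the spot number of the liver array's design.

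From the deposited signals, log2 ratios were computed in limma 3.58.1 (R 4.3.3) by normexp background correction with offset 50 and then within-array loess, with control spots at weight 0. Gene values left out control spots, outlier spots, spots dim in both channels and spots saturated in both; a gene's value is the mean over its probes. The offset pulls dim genes towards 0. The steps were tested on simulated data. Later steps used Python 3.11.15, numpy 2.4.6 and pandas 2.3.3. Symbols follow RefSeq (GRCm38.p6): 55 of 68 member probes matched by accession and 13 by symbol. All 41 members passed the filter on the liver and stomach arrays, 40 in both channels; Sele was well above background in Cy5 alone. Without replicates, genes were counted by size. Named genes were all members, with other genes named at 2-fold or more or where listed for lung, up to 6 per list, and defining markers; members below 0.5 that were not listed for lung appear with signals only as examples, chosen after their values were seen. The members and lists were chosen with earlier results of these data known. Alternatives and their effects are given in the closing section.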

Additional observations from a re-analysis of the deposited data

Results flagged for a closer look

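Members listed as Cy3-high for lung but at 0.5 or more towards Cy5 on the liver or stomach array were singled out because their organs lie on opposite sides; the difference was not tested, since each organ has 1 array. Members with smaller positive ratios, such as Sox17 and Vwf in stomach and most of the lung-listed members in liver, were not. Icam2 stood at 0.53 on the liver array, with a scanner error of 0.53, and at -3.42 for lung in the authors' deposited table. Ecscr stood at 0.82 on the stomach array (error 0.34) and at -1.56 for lung in the authors' deposited table. Notch4 stood at 0.65 on the stomach array (error 0.27) and at -1.23 for lung in the authors' deposited table.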

How the results depend on the processing

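In 7 alternatives (background method, offset, loess, 2 dim-spot filters, saturation, probe choice), the liver median of the members stayed between 0.11 and 0.19, with 32 to 37 of them above 0, and the stomach ratios of Kdr, Flt1, Plvap, Ramp2, Ecscr and Notch4 kept their sign. The stomach median ranged from -0.13 to 0.06. Median centring with no loess gave 0.064, with 22 members above 0. By that setting the all-gene median moved to 0.060, with 14181 of all 25322 genes above 0. Counts of members past 2-fold moved with the setting. With the scanner software's own ratio there was 1 Cy5-high member in liver (Sele), against 541 of all 25606 genes. In stomach that ratio gave 2 Cy5-high (Ecscr and Sele), against 1093 of all 25322 genes, and 2 Cy3-high (Kdr and Sox7), against 1049. Sele was not well above background in Cy3 on either array. In stomach, Ecscr was the 1 Cy5-high member with offset 10, against 441 of all genes, and the 1 with median centring, against 1017. Flt1 was the 1 Cy3-high member by its brightest probe, against 449 of all genes. The cause was not tested. The lung count of 31 became 25 at 3-fold or more, stayed 31 where a gene's listed spots had to lie in 1 list, and became 20, against 1952 of all 27677 genes, where every probe of a gene had to be listed, a count chosen after seeing the data; the Cy5-high count stayed at 0 in these 3 alternatives. No paired analysis was possible because each organ has 1 array, and for the same reason no array could be left out. Dim probes limit several members: the scanner error was above 1 log2 unit on both arrays for Tie1, Acvrl1, Nos3 and Sele, each with 1 probe. Averaged over the probes measured, it was also above 1 on both arrays for Pecam1, Cdh5, Tek, Erg, Sox7 and Angpt1.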
